A study of Mus musculus with 4 samples.

Results

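The liver carboxylesterases are a family of serine hydrolases, here the 10 mouse genes Ces1c, Ces1d, Ces1e, Ces1f, Ces1g, Ces2a, Ces2c, Ces2e, Ces3a and Ces3b, found on the array by gene symbol. Of these, 7 had at least one probe set annotated with that gene alone, 9 probe sets in all, among 18193 genes with such a probe set. Ces2c had none, and Ces3a and Ces3b shared a single probe set, so that none of these 3 genes was measured on its own. Each measured gene is represented by the probe set with the highest mean log2 signal over all arrays.

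RNA came from whole liver slices of 9-month-old male mice fed chow and kept specific pathogen free, without any intervention, and was hybridised to Affymetrix arrays. The mice were F1 hybrids from crossing the inbred strains AJ and B6 in both directions. In AB6F1 males (n = 2) the dam was AJ and the sire B6. In B6AF1 males (n = 2) the dam was B6 and the sire AJ. Both crosses carry one set of autosomes from each strain, and the X chromosome, Y chromosome, mitochondria and parental imprints are those that the direction of the cross exchanges. Source identifiers of the samples fall in separate blocks for the crosses, so that handling and cross cannot be told apart. The values are MAS5 signals, the linear brightness of a probe set, each array having been scaled to a trimmed mean of 500. Differences are on the log2 scale as AB6F1 minus B6AF1, with limma's standard error (SE) and 95% interval, and a gene passed where limma's p, adjusted over all 11749 genes tested by Benjamini-Hochberg, lay under 0.05.

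Carboxylesterases act mainly in the lumen of the endoplasmic reticulum of hepatocytes, where they cleave ester, thioester and amide bonds of drugs, pesticides and endogenous lipids. Several members of the Ces1 and Ces2 groups hydrolyse acylglycerols, and in mouse liver Ces1d takes part in releasing stored triglyceride for secretion in very low-density lipoprotein (VLDL). Most members carry a carboxy-terminal signal that keeps them in the endoplasmic reticulum, whereas Ces1c is secreted and is the main carboxylesterase of mouse plasma. All the genes lie on chromosome 8 in mouse, the Ces1 genes next to one another and the Ces2, Ces3 and Ces4a genes in a second group.

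Ces2a was the member with the largest difference, at 0.560 times the B6AF1 level in AB6F1 livers, and it did not pass limma over all genes. The other 6 measured members differed by at most 0.20 in size on the log2 scale. No member passed limma, 0 of 7, where 0.213% of all genes tested passed. At an unadjusted limma p under 0.05 there was 1 member of 7, Ces2a, where 9.72% of all genes lay under that value. All arrays of one cross lay above all arrays of the other for 3 members of 7, Ces1f, Ces1g and Ces2a, which is close to the 41.2% of all genes tested. The median log2 difference of the 7 members was -0.03, against 0.02 for all genes tested, with 2 members above 0 and 5 below. That median was -0.12 without B6AF1 replicate 2, and it was 0.01 after quantile normalization and -0.17 after centring each array on its median, where the median of all genes was -0.11. All 7 measured members were kept by the filter on dim genes, which does not look at the groups. With 2 mice in each cross, an exact two-sided permutation test of a single gene cannot give a p below 0.333, so limma, which borrows the spread from other genes, gave all the p-values here.

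**Figure D1:**
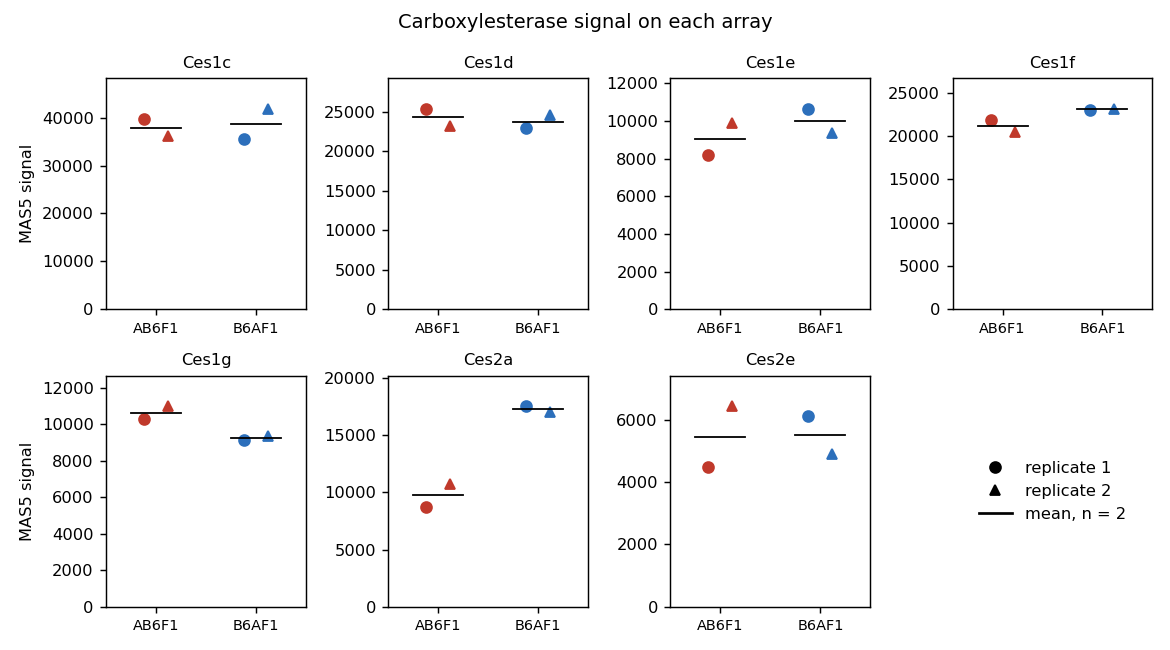
MAS5 signal (vertical axes, each starting at 0 with its own scale) of the 7 measured carboxylesterases on each array, AB6F1 in red and B6AF1 in blue, with a circle for replicate 1, a triangle for replicate 2 and a line for the mean. Among the 7 panels the crosses lie farthest apart for Ces2a, relative to its mean; its AB6F1 signals are 8707 and 10774 and its B6AF1 signals 17541 and 17045.

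Ces2a, which belongs to the Ces2 group of acylglycerol and drug ester hydrolases and was once named Ces6, had signals of 8707 and 10774 on the AB6F1 arrays, against 17541 and 17045 on the B6AF1 arrays. Both AB6F1 livers were below both B6AF1 livers. The means were 9740 ± 1461 in AB6F1 and 17293 ± 350.3 in B6AF1 (SD, n = 2 each), and the log2 difference was -0.84 ± 0.14 (SE; limma adjusted p = 0.116, unadjusted p = 0.000473). The 95% interval ran from -1.16 to -0.51, or from 0.448 to 0.70 times the B6AF1 level. On the log2 scale the replicates lay 0.31 apart in AB6F1 and 0.04 apart in B6AF1, both less than the difference between the crosses. By limma p, Ces2a ranked 48 of the 11749 genes tested. All these values come from 1 probe set, the only one of Ces2a, so no other reading of the gene could be set beside it. Without AB6F1 replicate 2, the brighter of the AB6F1 livers for this gene, the log2 difference was -0.99, and without the other AB6F1 liver it was -0.68. Leaving out B6AF1 replicate 1 gave -0.82, and leaving out B6AF1 replicate 2 gave -0.86.

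**Figure D2:**
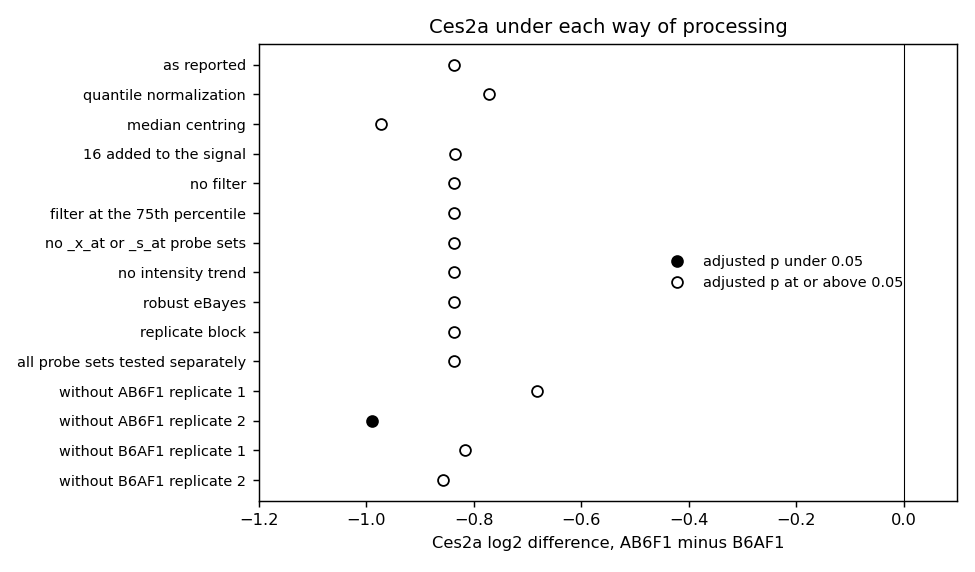
Log2 difference of Ces2a, AB6F1 minus B6AF1 (horizontal axis), as reported and under each of 14 other ways of processing (one per row); filled circles mark a limma adjusted p under 0.05. Every value lies below 0, between -0.99 and -0.68, and the one filled circle is the fit without AB6F1 replicate 2. That fit leaves 1 AB6F1 array.

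Ces2e, annotated as a pyrethroid hydrolase, is the nearest measured member of the same group on chromosome 8 and did not follow Ces2a. It had signals of 4466 and 6429 in AB6F1, against 6117 and 4906 in B6AF1. The arrays of the crosses were interleaved, and the replicates of AB6F1 were 0.53 apart on the log2 scale, the widest gap among the 7 members. The log2 difference of Ces2e was -0.03 ± 0.20 (SE; limma adjusted p = 0.972), with a 95% interval from -0.50 to 0.44. That interval and the interval of Ces2a do not overlap, but whether the genes differ in their change was not tested.

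The promoters of Ces2a and Ces2e are shown because these genes lie in one group on the chromosome, and Ces2a, unlike Ces2e, was lower on both AB6F1 arrays. RefSeq windows from 250 bases before to 50 bases after the gene start on GRCm38.p6 were at hand for 7 of the 10 members. The Ces2a window is chr8:104733753-104734052 and the Ces2e window chr8:104926010-104926309, both on the plus strand. Capitals mark every run of at least 12 letters that the 2 windows share.
Ces2a: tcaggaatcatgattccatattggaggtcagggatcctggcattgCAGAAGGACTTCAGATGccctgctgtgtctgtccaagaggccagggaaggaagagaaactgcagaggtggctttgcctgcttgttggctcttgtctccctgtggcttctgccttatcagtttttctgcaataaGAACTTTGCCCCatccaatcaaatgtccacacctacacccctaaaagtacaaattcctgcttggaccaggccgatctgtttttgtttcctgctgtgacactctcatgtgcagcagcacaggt
Ces2e: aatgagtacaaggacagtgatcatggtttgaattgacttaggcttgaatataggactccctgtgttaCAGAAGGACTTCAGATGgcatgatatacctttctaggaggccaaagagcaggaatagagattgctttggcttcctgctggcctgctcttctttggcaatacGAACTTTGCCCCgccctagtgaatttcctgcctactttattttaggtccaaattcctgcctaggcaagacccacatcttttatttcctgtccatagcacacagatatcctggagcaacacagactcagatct

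The run CAGAAGGACTTCAGATG, of 17 letters, was found on either strand in 2 of 32851 windows in the table, those of Ces2a and Ces2e. The run GAACTTTGCCCC, of 12 letters, was found in 3 windows. In a global alignment the windows were identical at 58.7% of columns, the highest of the 10 pairs among the 5 measured members with a window, which otherwise ranged from 47.1% for Ces1c and Ces1e to 55.2% for Ces1c and Ces1g. Searched on both strands, AGGTCA, the core element of many nuclear receptor binding sites, occurred 1 time in the Ces2a window and was not found in that of Ces2e; 16.3% of all windows hold it. CCAAT, the core of a common promoter element, occurred 2 times in the Ces2a window and was not found in that of Ces2e, and 37.4% of all windows hold it. Among the members with a window, CCAAT was also found in those of Ces1c, Ces1g, Ces2c and Ces3b. The AGGTCA match in Ces2a starts at base 25 of the window and directly follows a CCAAT match on the minus strand, with no overlap. The letters are those of the reference strain and describe the windows only.

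Ces1d, the triacylglycerol hydrolase once named Ces3, was read by 3 probe sets. On the brightest its signals were 25393 and 23176 in AB6F1, against 22956 and 24519 in B6AF1, and the crosses overlapped. The log2 difference was 0.03 ± 0.12 (SE; limma adjusted p = 0.95), with a 95% interval from -0.24 to 0.31. The probe set of suffix _a_at had signals of 19715 and 15916 in AB6F1, against 15589 and 15899 in B6AF1. Its log2 difference was 0.17 ± 0.14 when all probe sets were tested separately (SE; limma adjusted p = 0.755). The probe set of suffix _x_at had signals of 10391 and 11782 in AB6F1, against 11547 and 3029 in B6AF1. On that probe set B6AF1 replicate 2 stood far below the other arrays, which it did not do on the other probe sets of Ces1d. The log2 difference there was 0.90 ± 0.51 (SE; limma adjusted p = 0.646), with an interval from -0.30 to 2.10, so that the 3 probe sets gave unlike sizes and none passed.

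**Figure D3:**
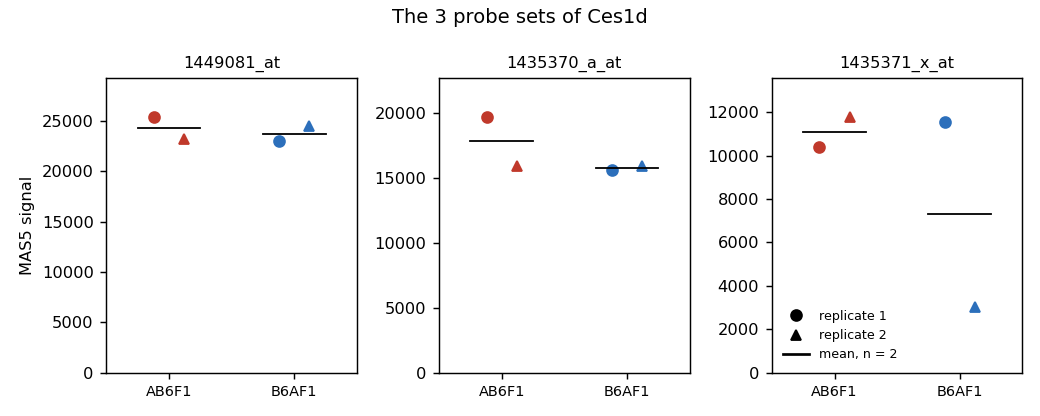
MAS5 signal (vertical axes from 0) of the 3 probe sets of Ces1d on each array, in order of mean brightness from left to right, with symbols as in the plot of all members. The crosses lie close together on the first and second probe sets, and on the last one B6AF1 replicate 2, at 3029, is far below the other arrays.

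Ces1g, a triglyceride hydrolase once named Ces1, had signals of 10285 and 10988 in AB6F1, against 9159 and 9338 in B6AF1. Both AB6F1 livers were above both B6AF1 livers, the one member with a positive difference whose arrays did not overlap. The log2 difference was 0.20 ± 0.11 (SE; limma adjusted p = 0.615), and its 95% interval from -0.06 to 0.46 includes 0. After median centring it was 0.06, and the arrays of the crosses then overlapped for Ces1g. In fold terms the interval ran from 0.959 to 1.38 times the B6AF1 level.

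Ces1f, also known as triacylglycerol hydrolase 2, had signals of 21856 and 20425 in AB6F1, against 23032 and 23175 in B6AF1. Both AB6F1 livers were below both B6AF1 livers, by a small margin. The log2 difference was -0.13 ± 0.11 (SE; limma adjusted p = 0.747), with an interval from -0.39 to 0.13. Its one probe set has the suffix _s_at, which can bind transcripts of more than one gene.

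Ces1e is egasyn, which holds part of the beta-glucuronidase of liver in the endoplasmic reticulum. Its signals were 8213 and 9918 in AB6F1, against 10668 and 9379 in B6AF1. The crosses overlapped, and the log2 difference was -0.15 ± 0.14 (SE; limma adjusted p = 0.767), with an interval from -0.48 to 0.18. Leaving out AB6F1 replicate 1 gave -0.01, and leaving out AB6F1 replicate 2 gave -0.28. After median centring it was -0.29, with both AB6F1 arrays below both B6AF1 arrays. Its partner Gusb, the beta-glucuronidase gene, had signals of 1024 and 1149 in AB6F1, against 1022 and 1117 in B6AF1. Gusb was at 0.02 ± 0.15 (log2 difference, SE; limma adjusted p = 0.973).

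Ces1c, the secreted plasma esterase once named Es1, had signals of 39661 and 36154 in AB6F1, against 35571 and 41928 in B6AF1. The crosses were interleaved. The log2 difference was -0.03 ± 0.13 (SE; limma adjusted p = 0.961), and the interval ran from -0.34 to 0.28, or from 0.789 to 1.22 times the B6AF1 level.

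The probe set shared by Ces3a and Ces3b, liver carboxylesterases of the second chromosomal group, cannot say which gene gave its signal. It read 30092 and 27572 in AB6F1, against 32548 and 32293 in B6AF1. Both AB6F1 livers were below both B6AF1 livers. Fitted beside the same genes, its log2 difference was -0.17 ± 0.11 (SE; limma adjusted p = 0.668), with an interval from -0.44 to 0.10.

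**Figure D4:**
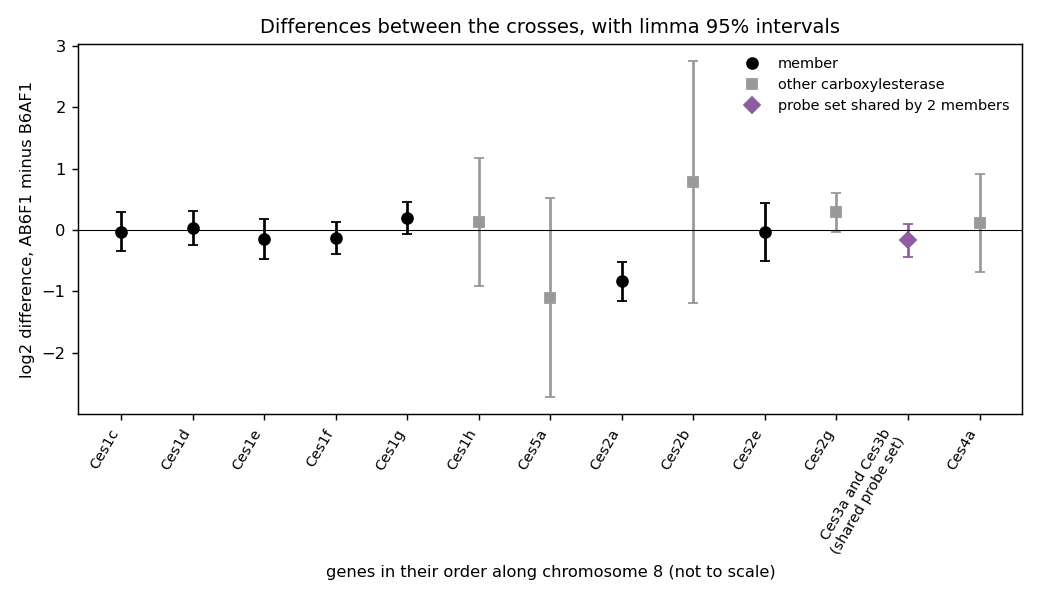
Log2 difference, AB6F1 minus B6AF1 (vertical axis), with limma's 95% interval for 13 carboxylesterase readings in the order of their genes along chromosome 8 (horizontal axis, not to scale). Black circles are the 7 measured members, grey squares other carboxylesterase genes and the purple diamond the probe set shared by Ces3a and Ces3b; Ces2a is the only one whose interval lies wholly on one side of 0.

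The remaining family genes were a list of 9, of which 5 were tested. Their median log2 difference was 0.13, with 4 above 0 and 1 below, and none passed limma or had an unadjusted p under 0.05. The sign of that median was not stable: leaving out B6AF1 replicate 1 gave -0.41, and leaving out B6AF1 replicate 2 gave 0.39. Ces2g, which lies beyond Ces2e on the chromosome, had signals of 2416 and 2579 in AB6F1, against 1908 and 2193 in B6AF1. Both AB6F1 livers were above both B6AF1 livers, opposite to Ces2a, and the log2 difference was 0.29 ± 0.13 (SE; limma adjusted p = 0.542). The other 4 were dim and their intervals wide. Ces1h was at 0.13 ± 0.44, Ces4a at 0.11 ± 0.34, Ces2b at 0.78 ± 0.83 and Ces5a, an esterase known from kidney and epididymis, at -1.11 ± 0.68 (log2 differences, SE; limma adjusted p from 0.652 to 0.946). Ces2f, with signals of 4.2 and 31.4 in AB6F1 and 15.3 and 35.7 in B6AF1 on its brighter probe set, was below the filter signal of 60.9 on every array and was not tested.

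No gene passed in the lists of enzymes and factors that work beside the carboxylesterases. Of 18 lipid ester hydrolases, 16 were tested, 10 above 0 and 6 below, with a median log2 difference of 0.03 and 1 at an unadjusted limma p under 0.05. The median became -0.12 on leaving out AB6F1 replicate 2, and 0.10 on leaving out AB6F1 replicate 1. The gene under 0.05 was Ldah, the lipid droplet-associated hydrolase, with signals of 2333 and 2729 in AB6F1, against 3193 and 3424 in B6AF1, at -0.39 ± 0.13 (log2, SE; limma adjusted p = 0.429). Abhd6, a monoacylglycerol lipase, was at -0.31 ± 0.15, and Abhd12, a lysophospholipase, at -0.24 ± 0.13 (log2 differences, SE). Of 9 hydrolases of xenobiotics 8 were tested, 2 above 0 and 6 below, with a median of -0.11 that reached -0.18 on leaving out B6AF1 replicate 1 and -0.01 on leaving out AB6F1 replicate 1. Bche, the butyrylcholinesterase that liver secretes into plasma, had signals of 4960 and 5588 in AB6F1, against 4035 and 4090 in B6AF1, at 0.37 ± 0.12 (log2, SE; limma adjusted p = 0.404). The epoxide hydrolases Ephx2 and Ephx1 were at -0.31 ± 0.15 and -0.44 ± 0.24 (log2 differences, SE; limma adjusted p = 0.557 and 0.601). For both genes all AB6F1 arrays lay below all B6AF1 arrays. Ephx1 had signals of 8836.5 and 15230.6 in AB6F1, against 15962.9 and 15587 in B6AF1. Its AB6F1 livers were far apart, and the brighter lay close to B6AF1.

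Receptors that return proteins to the endoplasmic reticulum did not pass limma. Kdelr2 was at -0.22 ± 0.12, with both AB6F1 arrays below both B6AF1 arrays (log2 difference, SE). Kdelr1 was at 0.04 ± 0.11, and the chaperone Hspa5, which bears the same kind of retention signal, at 0.11 ± 0.12 (log2 differences, SE). For Kdelr1 and for Hspa5 both AB6F1 arrays lay above both B6AF1 arrays, opposite to Kdelr2. Among the 5 tested genes of that list, out of 6, the median was 0.04 and none had an unadjusted p under 0.05. Leaving out B6AF1 replicate 1 put it at -0.04, and leaving out B6AF1 replicate 2 put it at 0.09. Of 10 genes of VLDL assembly, all tested, 6 lay above 0 and 4 below, with a median of 0.04 that reached -0.0046 on leaving out AB6F1 replicate 2 and 0.07 on leaving out AB6F1 replicate 1. Surf4, a cargo receptor for lipoproteins leaving the endoplasmic reticulum, was at 0.34 ± 0.12, and Cideb, a lipid droplet protein needed for lipidation of VLDL, at -0.37 ± 0.15 (log2 differences, SE; limma adjusted p = 0.437 and 0.482). These were the list's genes at an unadjusted p under 0.05, and they lay on opposite sides of 0. Dgat1, which makes triglyceride, was at 0.23 ± 0.14 (log2, SE).

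Of 12 transcription factors of the hepatocyte and of xenobiotic sensing, 11 were tested, 5 above 0 and 6 below, with a median log2 difference of -0.22. Their median moved to -0.04 on leaving out B6AF1 replicate 1, to -0.01 on leaving out B6AF1 replicate 2 and to -0.11 on leaving out AB6F1 replicate 2, and it was -0.35 after median centring. Nr1i3, the constitutive androstane receptor (CAR), had signals of 1339 and 1404 in AB6F1, against 1645 and 2015 in B6AF1. Both AB6F1 livers were below both B6AF1 livers, and the log2 difference was -0.41 ± 0.15 (SE; limma adjusted p = 0.452). Nr0b2, the small heterodimer partner that represses bile acid synthesis, had signals of 1336 and 3336 in AB6F1, against 4387 and 5111 in B6AF1. It was at -1.17 ± 0.38 (log2 difference, SE; limma adjusted p = 0.408), and its AB6F1 livers were far apart. Ahr, the aryl hydrocarbon receptor, was at -0.26 ± 0.12 (log2, SE). Of 12 targets of CAR and the pregnane X receptor (PXR), 10 were tested, 6 above 0 and 4 below, with a median of 0.03 that reached -0.17 on leaving out AB6F1 replicate 2 and 0.18 on leaving out AB6F1 replicate 1. The cytochromes Cyp2c37 and Cyp2c29 were at -0.59 ± 0.16 and -0.25 ± 0.12, whereas Cyp2b10 was at 0.94 ± 0.52 with interleaved arrays (log2 differences, SE; limma adjusted p from 0.331 to 0.613). Cyp2b10 had signals of 491.4 and 1721.3 in AB6F1, against 545 and 420 in B6AF1. Only AB6F1 replicate 2 stood above the B6AF1 livers, and AB6F1 replicate 1 lay between them. The targets of CAR and PXR did not lie on one side of 0, and none passed.

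**Figure D5:**
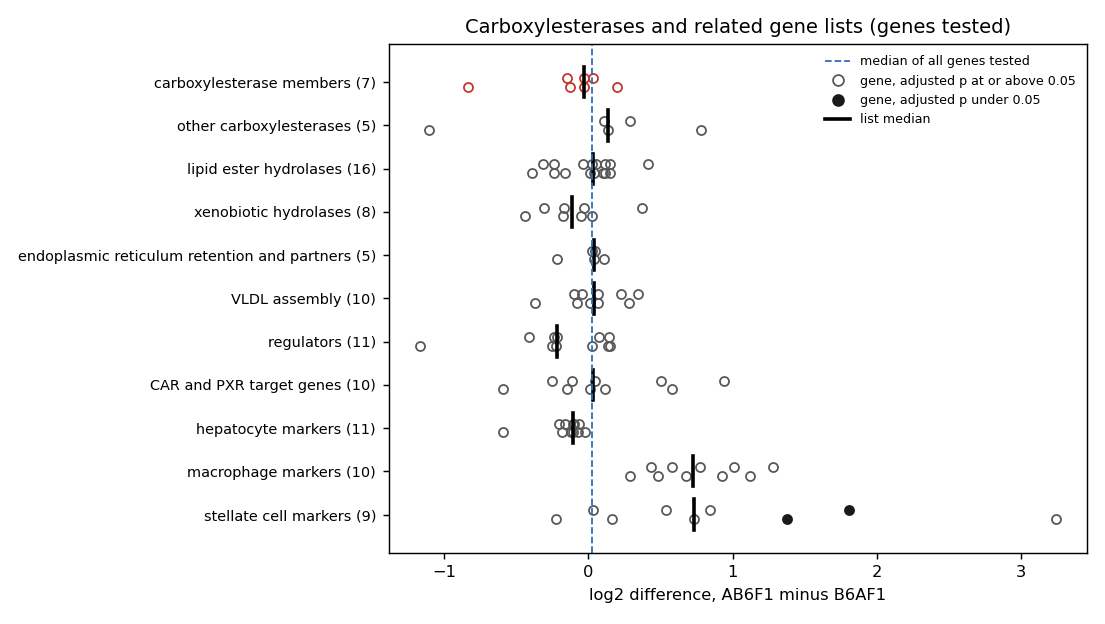
Log2 difference, AB6F1 minus B6AF1 (horizontal axis), of each tested gene in the carboxylesterases (red circles, top row) and in 10 related lists (one per row, number tested in brackets), with a black bar for the list's median and a dashed line for the median of all genes tested. Ces2a is the leftmost red circle, at -0.84; the filled circles, the genes past limma, are both stellate cell markers.

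Whole liver slices hold all the cell types of the organ, and in such samples fewer cells of a type and less RNA per cell cannot be told apart. The hepatocyte markers were measured on all arrays. Of 12, 11 were tested, all 11 at log2 differences below 0 with a median of -0.11 and none past limma. The hepatocyte median reached -0.20 on leaving out B6AF1 replicate 1 and -0.02 on leaving out B6AF1 replicate 2. Their summed signal was 461909 and 427069 in AB6F1, against 453814 and 516988 in B6AF1, so the crosses overlapped. Albumin (Alb) was at -0.16 ± 0.13 (log2, SE). All 10 tested macrophage markers, of 12, were above 0 with a median of 0.72 and none past limma, and Lyz2 was at 1.28 ± 0.26 (log2, SE). The macrophage median moved to 0.45 on leaving out AB6F1 replicate 1, to 0.41 on leaving out B6AF1 replicate 1 and to 1.04 on leaving out B6AF1 replicate 2. Their summed signal was 17338 and 10868 in AB6F1, against 7201 and 10059 in B6AF1. Of 9 stellate cell markers, all tested, 8 were above 0 with a median of 0.73, and Col3a1 and Col1a2 passed at 1.81 ± 0.16 and 1.37 ± 0.17 (log2, SE; limma adjusted p = 0.00931 and 0.0402). Their summed signal was 14112 and 17144 in AB6F1, against 10837 and 10317 in B6AF1, and the stellate median was 0.48 without AB6F1 replicate 2. Endothelial markers (7 of 8 tested) had a median of 0.28, cholangiocyte markers (3 of 6) 0.42 and blood cell markers (5 of 7) 1.05, and none of these genes passed. An unadjusted limma p under 0.05 was reached by 7 of 10 macrophage markers and 6 of 9 stellate cell markers. It was also reached by 3 of 5 blood cell, 1 of 7 endothelial, 0 of 11 hepatocyte and 0 of 3 cholangiocyte markers. Among all genes tested 9.72% reached it. The endothelial median moved to -0.03 on leaving out AB6F1 replicate 1, to -0.0042 on leaving out B6AF1 replicate 1 and to 0.44 on leaving out B6AF1 replicate 2. The cholangiocyte median reached 0.22 on leaving out B6AF1 replicate 1 and 0.62 on leaving out B6AF1 replicate 2. The blood cell median reached 0.73 on leaving out AB6F1 replicate 1 and 1.38 on leaving out AB6F1 replicate 2, and was 0.60 with no filter. Adipocyte markers were mostly below the filter, with Fabp4 alone tested, at 0.64 ± 0.23 (log2, SE), and of 7 pancreatic acinar markers the 2 tested, Prss2 and Cel, were at 0.09 ± 0.45 and 0.05 ± 0.54. The part of these cell type differences in the values of Ces2a was not tested.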

How the data were processed

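The deposited values were MAS5 intensity per probe set, per the submitters' processing notes, on a linear scale; from the values, each array had been scaled to a trimmed mean of 500 after the lowest and highest 2% were dropped, which hides any change shared by all transcripts. Detection calls, scanner files and a genome build of the annotation were not used here. Of 45101 probe sets 64 were controls, 34945 had 1 symbol, 932 several and 9160 none; symbols of 34741 were updated through gene identifiers in RefSeq GRCm38.p6. Each of 18193 genes took its brightest probe set, and genes below the median signal of all probe sets, 60.9, were dropped.

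Log2 signal, with no pseudocount, was tested with limma 3.58.1 in R 4.3.3 (lmFit, eBayes with an intensity trend, Benjamini-Hochberg, two-sided), with 2 residual and 4.97 prior degrees of freedom. Precision rests on 2 mice per cross, numbered as biological replicates. The fit was tested on simulated data. Promoters were aligned globally (match 1, mismatch -1, gap opening -2, extension -0.5). Members and lists were chosen with earlier results of these data known. Named genes were all members and family genes, up to 3 of smallest p per list, and Alb, Gusb and the KDEL receptors. The labels do not say whether the replicate numbers pair the mice, and the main fit used no pairing. Alternatives were quantile normalization, median centring, 16 added to the signal, other filters, no _x_at or _s_at probe sets, other variance moderation, a replicate block, separate probe sets and each array left out.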

Additional observations from a re-analysis of the deposited data

How the results depend on the processing

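Ces2a kept a negative difference with an unadjusted p under 0.05 under all 14 alternatives, with limma adjusted p from 0.00999 to 0.756; relative to the median of all genes it was at -0.86 as reported and after median centring, which moved that median to -0.11. No member passed limma under any alternative that kept all 4 arrays. With single arrays left out, Ces2a passed only without AB6F1 replicate 2, where more genes passed in all than in the main fit. That fit left 1 AB6F1 array, so its residual spread came from the B6AF1 pair alone. Centring gave 49 genes past limma in all, the replicate block 62, no intensity trend 0, and each array left out 1 to 242, in place of 25. Without B6AF1 replicate 1 or 2, Ces2a was at -0.82 or -0.86 on the log2 scale, against -0.84 as reported. The largest limma adjusted p of Ces2a came from those fits. They left 1 B6AF1 array, so their residual spread came from the AB6F1 pair alone. The labels give no pairing of the mice by replicate number. The correlation of same-numbered mice's deviations was -0.03, which cannot settle whether they were paired. The replicate block changed no call of a member, and Ces2a had a limma adjusted p of 0.066 with it. Quantile normalization put Ces1g, at 0.26, under an unadjusted p of 0.05 with Ces2a, and median centring put it at 0.06. With centring the members whose arrays did not overlap were Ces1e, Ces1f and Ces2a, 3 of 7, where 5253 of all 11749 genes tested did not overlap. With each array left out Ces1e ran from -0.28 to -0.01. The endothelial median was -0.00094 with the filter at the 75th percentile. Members near 0 changed sign without passing: Ces1c was at 0.069 after quantile normalization, and with each array left out from -0.147 to 0.090, above 0 without AB6F1 replicate 2 (0.038) or B6AF1 replicate 2; Ces1d was at -0.105 after median centring, and with each array left out from -0.034 to 0.098, below 0 without AB6F1 replicate 1 or B6AF1 replicate 1 (-0.015); Ces2e was at 0.011 after quantile normalization, and with each array left out from -0.295 to 0.231, above 0 without AB6F1 replicate 1 or B6AF1 replicate 1 (0.127). Without _x_at and _s_at probe sets Ces1f was not measured. Precision was limited by 2 mice per cross.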
